A study of Mus musculus with 16 samples.

Results

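Brown adipose tissue (BAT) was compared with inguinal white adipose tissue (WAT) in mice that lived at 30 °C all their lives. The comparison used 8 of the 16 libraries of the study, chosen by their titles: 4 of BAT (BAT_30C, replicates 1 to 4) and 4 of WAT (WAT_30C, replicates 1 to 4). All were from female wild type C57BL/6 mice aged 16 weeks, bred, born and weaned at 30 °C and killed after 2 to 3 h without food, so no group in this comparison had been kept in the cold and no allele or agent was involved. Poly(A)-selected RNA was sequenced, and each value starts from the authors' counts of reads per gene. BAT and WAT here mean these 2 groups, and every fold change is BAT over WAT. Nothing in the labels ties each library to a mouse of its own, so p-values measure the spread between libraries, which may be in part technical. In 2 of the BAT libraries, replicates 3 and 4, the source label named the cold group, whereas the title and the housing temperature, which set the groups, gave 30 °C. The tissue label of BAT named an inguinal depot, and that wording is set against the positional genes further on.

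Brown and white fat cells store triglyceride in much the same way and share the genes for it, but brown fat cells are packed with mitochondria and make uncoupling protein 1, which lets protons return into the mitochondrial matrix as heat in place of ATP. In mice the main brown depot lies between the shoulder blades, while the inguinal depot lies under the skin of the groin. The inguinal pad of a female mouse also holds a mammary gland and a lymph node, so RNA from the whole pad mixes that of fat cells with that of epithelium and lymphocytes. Housing near 30 °C removes most of the demand for heat and keeps brown fat in its least active state.

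The libraries held 55748148 to 67127591 counts each. CPM is a count per 1000000 counts of the library, scaled by TMM, a method that sets the bulk of the genes level between libraries. Of 18519 genes that passed a filter on low counts, 13375, or 72.2%, passed the edgeR quasi-likelihood test at a Benjamini-Hochberg adjusted p under 0.05: 6274 (33.9%) were higher in BAT and 7101 (38.3%) were lower. A test against a 2-fold threshold left 2167 genes higher (11.7%) and 3813 lower (20.6%), 32.3% of all genes. The 4 libraries of BAT lay above all 4 of WAT in 5937 genes (32.1%) and below them in 6679 (36.1%). The first principal component separated the tissues and held 87.2% of the variance. Mitochondrially encoded genes held 24.2 to 26.8% of all counts in BAT, against 3.19 to 4.18% in WAT. The split rests on the scaling: with library totals in place of TMM 2514 genes were higher and 12513 lower, the median over all genes went to -0.85 (log2 fold change), from -0.07 with TMM, and genes within about that distance of 0 changed direction. All changes given here are relative to TMM. Of the 12 pairs of libraries within a tissue each differed by more than sampling noise (chi-square per degree of freedom 21.4 or more). In bulk tissue, fewer cells of a type and less RNA of that type per cell cannot be told apart.

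**Figure D1:**
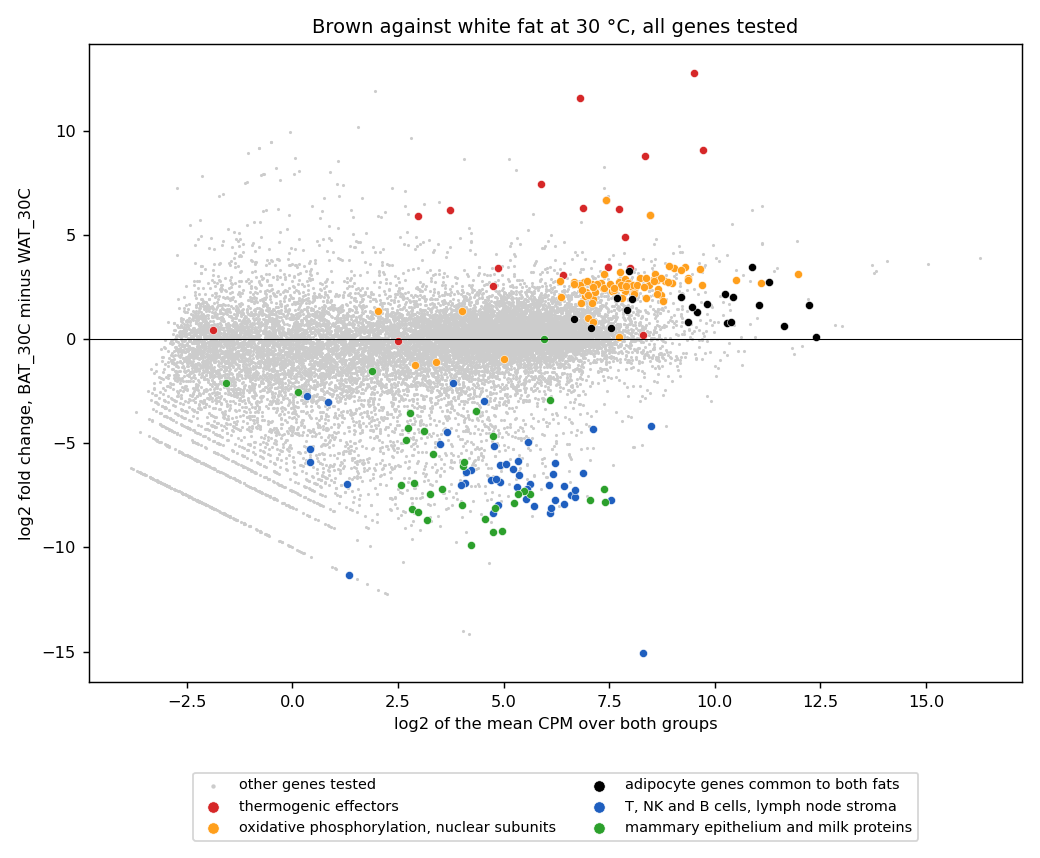
Each point is a gene, with the log2 of its mean CPM over both groups on the horizontal axis and its log2 fold change, BAT over WAT, on the vertical axis. Colours mark gene lists: thermogenic effectors and oxidative phosphorylation subunits lie above 0 and lymphoid and mammary genes below it, with few exceptions in either, while the slanted rows at the lower left are genes with 0 to few counts in BAT, whose fitted folds are not measured sizes.

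The genes that mark brown fat had the highest median of the 35 lists. Of 20 thermogenic effectors, 17 were higher in BAT and none was lower, with a median log2 fold change of 5.95 against -0.07 over all genes tested. Ucp1, the uncoupling protein, was at 696, 2221, 834 and 2082 CPM in BAT, against 0.191, 0.0975, 0.371 and 0.163 CPM in WAT. Its log2 fold change of 12.78 ± 0.67 (SE; edgeR adjusted p = 1.45e-07) was the largest on the brown side. BAT replicates 1 and 3 were about a factor of 3 below replicates 2 and 4, while all 4 stood far above every WAT library. The 250 bases before the start of Ucp1 are shown since it leads the comparison (RefSeq, GRCm38.p6, chr8:83290098-83290347, plus strand), in lower case throughout since the motif searched for among the respiratory genes was not in it.
Ucp1: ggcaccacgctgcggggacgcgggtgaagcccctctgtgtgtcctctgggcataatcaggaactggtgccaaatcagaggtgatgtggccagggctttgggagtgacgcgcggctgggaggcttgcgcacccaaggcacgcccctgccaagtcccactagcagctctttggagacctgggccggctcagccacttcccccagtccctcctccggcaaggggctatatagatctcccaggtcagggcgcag

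Cidea, a lipid droplet protein of brown fat cells, was at 1278, 1787, 1630.4 and 2059 CPM in BAT, against 1.88, 1.91, 6.66 and 1.90 CPM in WAT (log2 fold change 9.10 ± 0.57, SE; edgeR adjusted p = 4.52e-07). Among WAT libraries, replicate 3 was the highest for Cidea and also had the highest Ucp1 and Otop1. Slc27a2, an acyl-CoA synthetase and fatty acid transporter, had 102, 312, 204 and 277 CPM in BAT, against 0.112, 0.0365, 0.0639 and 0.0679 CPM in WAT (log2 fold change 11.58 ± 0.51; edgeR adjusted p = 4.81e-08). Otop1, a proton channel, had 71.2, 163, 112 and 125 CPM in BAT, against 0.752, 0.134, 1.10 and 0.733 CPM in WAT (log2 fold change 7.44 ± 0.50; edgeR adjusted p = 7.55e-07). These groups did not overlap for any of the 3. Dio2, which activates thyroid hormone, was much lower in level, at 16.7, 26.1, 5.64 and 56.2 CPM in BAT and 0.494, 0.280, 0.256 and 0.380 CPM in WAT, and within BAT it differed by about a factor of 10 between replicates 3 and 4. The potassium channel gene Kcnk3 had 304, 562, 452 and 490.3 CPM in BAT, against 12.1, 16.1, 20.6 and 11.7 CPM in WAT. Pank1, which starts coenzyme A synthesis, stood at 263, 496, 392 and 537 CPM in BAT, against 5.32, 6.74, 5.11 and 5.28 CPM in WAT. Plin5, a coat protein that ties lipid droplets to mitochondria, was at 239.9, 282, 170.3 and 241 CPM in BAT and 3.33, 1.88, 2.54 and 3.98 CPM in WAT. In each of the 4 the lowest BAT library exceeded the highest WAT library by a factor of 10 or more.

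The other 3 effectors did not pass the test, each in its own way. Elovl3, a fatty acid elongase known from active brown fat, was close to the detection limit in both tissues, at 0.0203, 0.651, 0.0667 and 0.526 CPM in BAT and 0.0449, 0.560, 0.294 and 0.0136 CPM in WAT (edgeR adjusted p = 0.708). Adrb3, the receptor through which noradrenaline acts on rodent fat cells, was abundant in both, at 319, 362, 358 and 307 CPM in BAT and 166, 377, 329 and 306 CPM in WAT (log2 fold change 0.19 ± 0.21; edgeR adjusted p = 0.439). With library totals Adrb3 passed as lower in BAT, at -0.58 (edgeR adjusted p = 0.0252). Ckmt2, a mitochondrial creatine kinase also made by muscle, ranged from 0.0444 to 11.1 CPM in BAT and from 0.359 to 12.4 CPM in WAT. Its highest library in each tissue was one with high skeletal muscle markers, described below, and the part of muscle in its level was not tested.

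The regulators of the brown fate followed, with 11 of 16 higher in BAT, 3 lower and a median log2 fold change of 2.21. Of all genes 33.9% were higher and 38.3% lower. Zic1, a transcription factor of the axial body wall, had 14.5, 11.5, 11.8 and 12.8 CPM in BAT, against 0.101, 0.158, 0.0895 and 0 CPM in WAT, with 0 counts in WAT replicate 4. Ppara, the nuclear receptor that drives fat oxidation genes, was at 236, 396, 275 and 408 CPM in BAT, against 1.94, 3.45, 1.33 and 1.98 CPM in WAT (log2 fold change 7.24 ± 0.36; edgeR adjusted p = 9.62e-08). The coactivator gene Ppargc1b had 119, 120.1, 91.6 and 130.2 CPM in BAT, against 6.50, 5.81, 5.45 and 4.59 CPM in WAT (log2 fold change 4.36 ± 0.15; edgeR adjusted p = 1.33e-08), and its relative Ppargc1a had 41.1, 56.1, 48.0 and 109 CPM in BAT, against 3.91, 6.43, 6.43 and 6.52 CPM in WAT. Differences were smaller for the determination factors. Ebf2 had 164, 169, 126 and 118 CPM in BAT, against 13.5, 21.8, 13.04 and 23.4 CPM in WAT (log2 fold change 3.01 ± 0.23), and Prdm16 had 56.2, 28.1, 28.8 and 36.5 CPM in BAT, against 7.09, 6.81, 8.26 and 10.3 CPM in WAT (log2 fold change 2.20 ± 0.24). Both were thus detected in every WAT library. Zfp516 and Irf4 did not pass, with log2 fold changes of 0.16 ± 0.10 and 0.30 ± 0.22 (edgeR adjusted p = 0.174 and 0.256). With library totals Zfp516 passed as lower in BAT, at -0.61 (edgeR adjusted p = 0.00079). Without BAT replicate 4 Irf4 passed, at 0.49 (edgeR adjusted p = 0.0294). WAT libraries also hold lymph node RNA, and its part in the level of Irf4 was not tested.

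Among the oestrogen-related receptors, which bind promoters of mitochondrial genes, 2 were higher and 1 was lower. Esrra had 136, 127, 130.2 and 130.2 CPM in BAT, against 36.6, 37.0, 33.2 and 27.9 CPM in WAT, and Esrrg had 31.9, 33.9, 39.6 and 44.9 CPM in BAT, against 2.21, 2.73, 2.45 and 1.49 CPM in WAT. Esrrb went the other way, at 1.38, 1.77, 0.733 and 1.77 CPM in BAT, against 26.5, 2.46, 3.32 and 21.1 CPM in WAT. There replicates 1 and 4 were more than a factor of 10 above every BAT library, and replicates 2 and 3 were much closer to BAT. Those 2 WAT libraries, 1 and 4, also had the highest levels of the epithelial genes Krt8, Areg and Pgr, and the part of epithelium in Esrrb was not tested. The other regulators lower in BAT were Bmp7, at 0.790, 0.854, 0.289 and 0.502 CPM in BAT and 6.00, 7.57, 4.67 and 4.70 CPM in WAT, and Epsti1, at 3.18, 3.48, 4.13 and 3.54 CPM in BAT and 151, 118, 142 and 139 CPM in WAT. Bmp7 is a growth factor that promotes brown fat formation. The part of lymph node RNA in the WAT level of Epsti1 was not tested.

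The respiratory apparatus was higher in BAT almost as a unit. All 36 nuclear subunits of complex I were higher, with a median log2 fold change of 2.61 and all beyond 2-fold. All 14 of complexes II and III (median 2.85) and 13 of 14 of complex IV (2.71) were also higher by over 2-fold. Of the 16 of complex V (2.15), 13 were higher and 11 of these lay beyond 2-fold. Ndufv1, a core subunit of complex I, had 875, 971, 997 and 977 CPM in BAT, against 79.4, 84.5, 98.7 and 97.4 CPM in WAT (log2 fold change 3.41 ± 0.10; edgeR adjusted p = 1.08e-08). Sdha, the catalytic subunit of complex II, had 2477, 2604, 2467 and 2641 CPM in BAT, against 301, 344, 384 and 376 CPM in WAT, and Cyc1, a cytochrome of complex III, had 1111, 1159, 1169.8 and 1172 CPM in BAT, against 95.3, 96.7, 118 and 111 CPM in WAT. Atp5b, the beta subunit of ATP synthase, had 6602, 7453, 7295 and 7419 CPM in BAT, against 729, 762, 885 and 918 CPM in WAT. The spread within a tissue was small for these genes, and no library of either tissue came near the other.

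Of complex V, 2 members went against the rest. Atp5g1, which encodes 1 of the copies of the c-ring subunit, was lower in BAT at 26.4, 17.7, 22.9 and 20.1 CPM, against 40.6, 38.7, 47.6 and 42.5 CPM in WAT (log2 fold change -0.96 ± 0.13; edgeR adjusted p = 7.5e-05). Atpif1, the inhibitor that stops ATP synthase from running backwards, was also lower, at 6.42, 6.30, 7.87 and 6.29 CPM in BAT, against 15, 13.6, 14.1 and 15.5 CPM in WAT (log2 fold change -1.11 ± 0.11; edgeR adjusted p = 1.19e-05). Both kept their direction under library totals. The subunit of complex IV that did not pass was Cox6a2, at 8.32, 0.834, 0 and 8.75 CPM in BAT and 1.76, 10.2, 23.4 and 6.80 CPM in WAT. It is the heart and muscle form, and its order over the WAT libraries was that of the summed skeletal muscle markers, lowest in replicate 1 and highest in replicate 3. The part of muscle in its level was not tested.

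A search of the 250 bases before each gene's start was run on both strands for 7 short motifs, and the one shown was chosen after the counts were seen. The motif that nuclear respiratory factor 1 is known to bind was present before 14 of the 65 oxidative phosphorylation genes that matched a RefSeq promoter, 21.5%, against 4.23% of all 27025 genes. It was before 0 of 15 thermogenic effectors. TGACGTCA, the cyclic AMP response element, was present before 5 of the 65 (7.69%), against 1.77% of all genes. The letters AAGGTCA, a core of nuclear receptor sites, were before 6 (9.23%, against 4.70%), and TNAAGGTCA, its longer form that oestrogen-related receptors bind and that overlaps it, before 2 (3.08%, against 1.30%). The EBF motif was before 1, and ACCGGAAGT, a motif of ETS factors, and the direct repeat of that core were before none. Of the 14 genes, 13 were higher in BAT, at log2 fold changes of 1.003 to 2.86, and Atpif1 was lower. A match is a description of letters, and no binding was measured. Sdha and Ndufs6, a complex I subunit at 167, 174, 190.0 and 173 CPM in BAT and 24.1, 23.9, 30.0 and 27.6 CPM in WAT, are shown with the matches in capitals, as 250 bases 5′ to 3′ from the minus strand of GRCm38.p6 (RefSeq), at chr13:74350241-74350490 and chr13:73328483-73328732. Sdha held 3 matches that did not overlap and Ndufs6 held 1.
Sdha: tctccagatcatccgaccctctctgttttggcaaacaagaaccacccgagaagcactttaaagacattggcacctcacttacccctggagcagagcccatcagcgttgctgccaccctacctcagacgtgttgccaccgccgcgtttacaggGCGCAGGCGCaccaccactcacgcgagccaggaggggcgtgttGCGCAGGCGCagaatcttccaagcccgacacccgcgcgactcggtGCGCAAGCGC
Ndufs6: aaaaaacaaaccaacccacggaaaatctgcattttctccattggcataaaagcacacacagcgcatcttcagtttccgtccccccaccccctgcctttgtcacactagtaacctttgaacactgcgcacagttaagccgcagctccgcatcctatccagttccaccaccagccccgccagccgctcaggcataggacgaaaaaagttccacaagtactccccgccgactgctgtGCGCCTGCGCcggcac

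Every listed gene of the TCA cycle, pyruvate dehydrogenase and fatty acid oxidation, which feed the respiratory chain, was higher in BAT. Cpt1a, a gene of fat entry into mitochondria that is not in these lists, was lower, as given below. All 18 genes of the TCA cycle and pyruvate dehydrogenase (median log2 fold change 3.12) and all 19 of fatty acid oxidation (3.59) were higher in BAT by over 2-fold. Acaa2, the thiolase that ends each round of fatty acid oxidation, had 2209, 2794, 2699 and 2873 CPM in BAT, against 46.3, 58.3, 61.1 and 65.2 CPM in WAT (log2 fold change 5.52 ± 0.16; edgeR adjusted p = 1.07e-08). Hadhb, a subunit of the trifunctional protein, had 3743, 4489, 4285 and 4642 CPM in BAT, against 149, 157, 196 and 199.8 CPM in WAT. Coq8a, needed for coenzyme Q synthesis, had 3523, 4898, 4473 and 4792 CPM in BAT, against 41.9, 56.6, 66.2 and 48.5 CPM in WAT. Pdk4, the kinase that shuts pyruvate dehydrogenase when fat is burned, had 2661, 4577, 3652 and 4017 CPM in BAT, against 31.9, 40.2, 57.2 and 74.5 CPM in WAT. Replicate 1 was the lowest of the BAT libraries in Acaa2, Hadhb, Coq8a and Pdk4, as it was in Ucp1.

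The mitochondrial genome pointed the same way. All 13 of its protein genes were higher in BAT, with a median log2 fold change of 3.58. For mt-Cytb, the cytochrome b of complex III, the levels were 57121, 64333, 64041 and 64467 CPM in BAT, against 4624, 4421, 5286 and 6377 CPM in WAT (log2 fold change 3.59 ± 0.15; edgeR adjusted p = 3.5e-08). Some of its neighbours cannot be read as single genes: of the 50-base windows of mt-Co2 and mt-Co3, 100% and 99.9% also occur in transcripts of nuclear copies, and of mt-Co1 51.1%. The level of mt-Co3, at 141, 305, 202 and 489 CPM in BAT and 3.31, 47.7, 2.48 and 85.2 CPM in WAT, is uncertain, and it no longer passed the test without BAT replicate 4 (edgeR adjusted p = 0.0565).

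For a pair of related genes, the ratio within a library can be compared without any scaling between libraries. The cells of the tissue that make each member were not told apart. Ratios are of CPM per kb of annotated length, plus 0.01. Cox7a1 and Cox7a2 encode the muscle-type and the general form of a complex IV subunit, and the log2 ratio of Cox7a1 to Cox7a2 was 0.69 ± 0.06 in BAT and -3.88 ± 1.21 in WAT (SD, n = 4 each). The same held for Cox8b over Cox8a, at 0.86 ± 0.07 in BAT and -3.04 ± 0.49 in WAT. Cpt1b, the muscle-type carnitine palmitoyltransferase that carries fat into mitochondria, stood to the liver-type Cpt1a at 0.29 ± 0.49 in BAT and -6.78 ± 0.82 in WAT. Here Cpt1a itself was lower in BAT, at 25.7, 32.4, 30.9 and 22.9 CPM, against 52.8, 68.6, 68.0 and 59.2 CPM in WAT. Of the windows of Cpt1b 78.6% are shared with a transcript that is annotated as another gene, so its own level is uncertain. Ldhb over Ldha, the 2 lactate dehydrogenase subunits, stood at 0.97 ± 0.13 in BAT and -3.13 ± 0.39 in WAT, and Hk2 over Hk1, 2 hexokinases, at 2.89 ± 0.31 in BAT and 0.24 ± 0.29 in WAT. Fabp3 over Fabp4, the heart and the fat cell fatty acid binding proteins, stood at -1.08 ± 0.28 in BAT and -8.83 ± 1.71 in WAT. In all these pairs the tissues did not overlap. Over the WAT libraries Cox7a1, Cpt1b and Fabp3 were lowest in replicate 1 and highest in replicate 3, as were the summed skeletal muscle markers described below. The part of muscle in their WAT levels was not tested. In 2 pairs the ratio of the muscle-type to the other member was lower in BAT, again without overlap. Cox6a2 over Cox6a1 stood at -10.04 ± 4.91 in BAT and -4.16 ± 1.496 in WAT. Eno3 over Eno1, a pair of enolases, stood at -3.35 ± 0.87 in BAT and -0.18 ± 1.26 in WAT. The level of Cox6a2 itself overlapped between the tissues and did not pass the test, while Cox6a1 was higher in BAT (log2 fold change 2.68). BAT replicate 3 had 0 counts of Cox6a2, so its ratio is set by the added 0.01. In both pairs BAT replicates 1 and 4 and WAT replicate 3, the libraries highest in skeletal muscle RNA in their tissue, had the highest ratios, and the part of muscle was not tested. The tissues did overlap for the ADP/ATP carriers Slc25a4 over Slc25a5, at -0.65 ± 0.06 in BAT and -0.86 ± 0.33 in WAT.

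**Figure D2:**
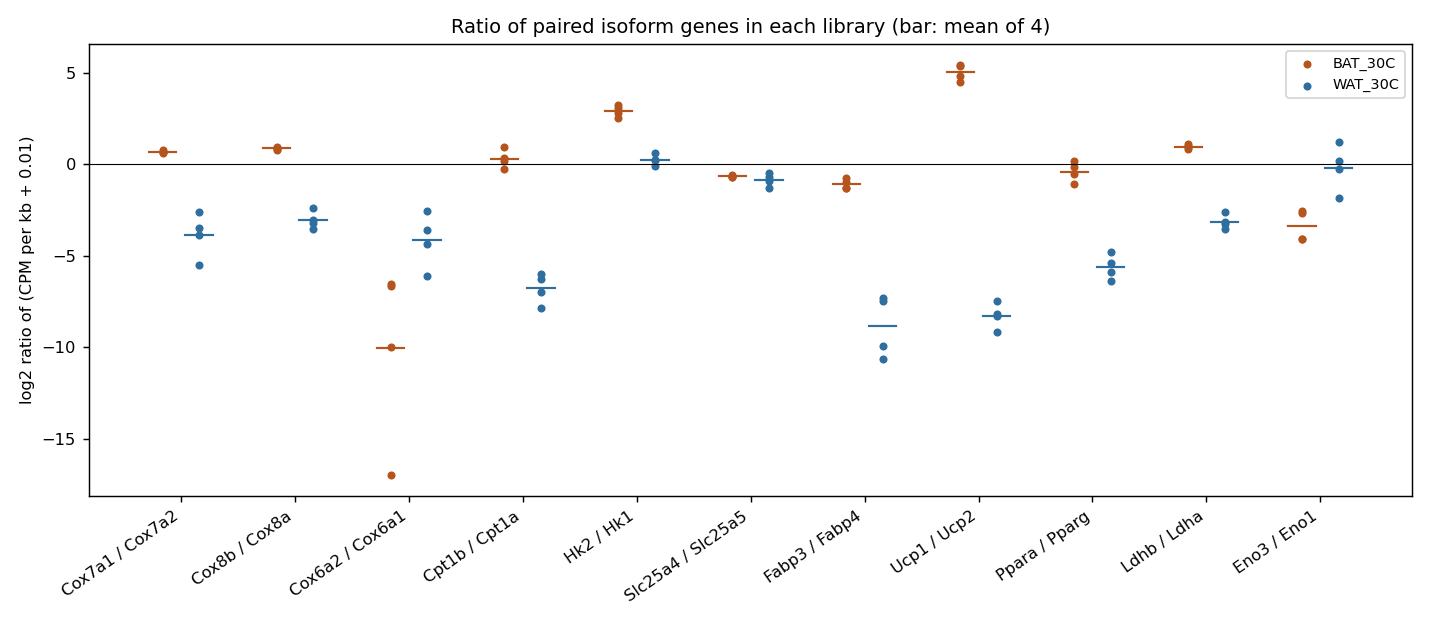
Points are the 4 libraries of each tissue and bars their means, on a log2 scale of the ratio of the first to the second gene of 11 pairs, each in CPM per kb plus 0.01. In 8 pairs every BAT library lies above every WAT library, from Hk2 over Hk1 at 2.89 in BAT and 0.24 in WAT to Ucp1 over Ucp2 at 5.04 in BAT and -8.29 in WAT, in 2 pairs (Cox6a2 over Cox6a1 and Eno3 over Eno1) every BAT library lies below, and Slc25a4 over Slc25a5 overlaps.

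Genes that both fats use to store and release lipid were also higher in BAT, though by less. Of 22 such genes 21 were higher, none was lower and the median log2 fold change was 1.59. The geometric mean of the list was 1052 to 1213 CPM in BAT, against 290.3 to 430.3 CPM in WAT. Fabp4, the fatty acid binding protein of fat cells, had 5992, 8064, 7878 and 7214 CPM in BAT, against 1663, 2221, 2383 and 3036 CPM in WAT (log2 fold change 1.65 ± 0.18; edgeR adjusted p = 2.47e-05). Pnpla2, the first lipase of triglyceride breakdown, had 3736, 4886, 4319.7 and 4326 CPM in BAT, against 430.2, 800.2, 639 and 736 CPM in WAT (log2 fold change 2.73 ± 0.19; edgeR adjusted p = 1.08e-06). Pparg, the master regulator of fat cell formation, had 386, 272, 310.4 and 352 CPM in BAT, against 65.2, 74.0, 62.8 and 128 CPM in WAT. The hormone gene Adipoq was at 1735, 1771, 1712 and 1659 CPM in BAT, against 650.5, 1156, 962 and 1080.1 CPM in WAT (log2 fold change 0.84 ± 0.16; edgeR adjusted p = 0.00102). With library totals Adipoq no longer passed, at 0.061 (edgeR adjusted p = 0.723). Cfd, which encodes adipsin, did not differ by the test, at 7967, 4795, 5577 and 3999.7 CPM in BAT and 5122, 5576, 5361 and 4904 CPM in WAT (edgeR adjusted p = 0.679). It passed as lower in BAT with library totals, at -0.68 (edgeR adjusted p = 0.0126). With library totals the list held 14 genes higher and 1 lower, and its median was 0.81.

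De novo lipogenesis, the making of fatty acid from sugar, gave a mixed count. Of 17 genes 6 were higher, near the 33.9% of all genes, 2 were lower and 9 did not pass, with a median log2 fold change of 0.18, and with library totals 3 were higher and 10 lower. Of the 6, 3 lay beyond 2-fold, among them Acacb, the acetyl-CoA carboxylase at the mitochondrion, at 746, 1154, 1123 and 928 CPM in BAT, against 58.0, 85.4, 129.5 and 90.2 CPM in WAT (log2 fold change 3.44 ± 0.25; edgeR adjusted p = 1.4e-06). Fasn, the fatty acid synthase, had 4765, 2211, 2907 and 2506 CPM in BAT and 2981, 3610.1, 6807 and 3348 CPM in WAT (log2 fold change -0.44 ± 0.31; edgeR adjusted p = 0.232), with 1 high library in each tissue. Fasn passed as lower in BAT with library totals, at -1.19 (edgeR adjusted p = 0.00641), and with totals that leave out mitochondrial genes, at -0.82 (edgeR adjusted p = 0.037). Glucose genes leaned to BAT, with 13 of 18 higher, 3 lower and a median of 1.45, against 33.9% of all genes higher and 38.3% lower. Slc2a4, the insulin-responsive glucose transporter, had 404, 412, 396 and 451 CPM in BAT, against 74.7, 129, 118 and 109.7 CPM in WAT, while Slc2a1, the general transporter, was lower in BAT at 11.4, 13.4, 10.4 and 13.9 CPM, against 41.6, 36.2, 32.5 and 30.1 CPM in WAT. Pck1, the key enzyme of glycerol synthesis from small acids, had 4239.6, 6499, 4247 and 4729 CPM in BAT, against 354, 709.6, 451 and 509.5 CPM in WAT (log2 fold change 3.28 ± 0.24; edgeR adjusted p = 1.31e-06).

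Genes known as white fat markers did not all go one way. Of the 15, 14 were tested, and 7 were lower in BAT, 3 were higher and 4 did not pass (median log2 fold change -0.97). Of all genes 38.3% were lower and 33.9% higher. With library totals 9 were lower and 1 was higher (median -1.74). Lep, the gene of leptin, was at 246, 100.5, 145 and 123 CPM in BAT and 84.0, 148, 68.7 and 212 CPM in WAT (log2 fold change 0.27 ± 0.38; edgeR adjusted p = 0.548), and the groups overlapped. Retn, the gene of resistin, was lower, at 217, 118, 122 and 106 CPM in BAT, against 375, 536, 580.5 and 491 CPM in WAT (log2 fold change -1.82 ± 0.24; edgeR adjusted p = 7.73e-05). Sncg, which encodes gamma-synuclein, had 46.4, 35.5, 41.0 and 29.1 CPM in BAT, against 97.1, 126, 112 and 265 CPM in WAT (log2 fold change -1.98 ± 0.31; edgeR adjusted p = 0.000275). Nnat, an imprinted gene of a small membrane protein, was higher in BAT, at 801, 783, 998 and 612 CPM, against 239, 314, 176 and 445 CPM in WAT. BAT replicate 1 had the highest Lep, Retn, Sncg, Psat1 and Agt of the BAT libraries.

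WAT libraries also hold lymphoid and epithelial RNA, so the same genes were set against the 22 common adipocyte genes of their own library, as a percentage of the geometric mean of that list. This is a description, since that list itself differed between the tissues. Retn then stood at 12.9 ± 5.24% in BAT and 132 ± 19.4% in WAT (SD, n = 4 each), Sncg at 3.45 ± 0.83% in BAT and 39.0 ± 15.6% in WAT, and Nrip1, a corepressor of mitochondrial genes, at 5.604 ± 0.33% in BAT and 26.8 ± 3.23% in WAT. The BAT and WAT libraries did not overlap for any of these. Lep stood at 14.1 ± 6.57% in BAT and 32.9 ± 12.8% in WAT, and here the highest BAT library was still above the lowest WAT library. Adrb3, alike in CPM, stood at 30.4 ± 2.40% in BAT and 76.8 ± 15.5% in WAT without overlap. Nnat overlapped, at 72.4 ± 16.6% in BAT and 77.1 ± 23.1% in WAT. For Rb1, the retinoblastoma gene, the higher tissue depended on the measure: it had 88.0, 90.1, 94.4 and 84.0 CPM in BAT and 52.5, 57.7, 57.5 and 63.6 CPM in WAT, but 8.06 ± 0.67% in BAT and 15.6 ± 1.95% in WAT of the adipocyte mean.

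Markers described for beige fat cells, which appear in white depots, were mostly lower in BAT. Of 9 genes 6 were lower, 2 higher and 1 did not pass, against 38.3% of all genes lower and 33.9% higher. WAT here is RNA of the whole pad with its lymph node, and which cells make these genes was not tested. Tmem26, a membrane protein, had 0.0608, 0.0203, 0.0889 and 0.0717 CPM in BAT, against 4.24, 5.20, 4.69 and 3.84 CPM in WAT (log2 fold change -6.19 ± 0.32; edgeR adjusted p = 1.23e-07), and Tbx1, a T-box factor, had 0.0608, 0.0203, 0.0444 and 0.120 CPM in BAT, against 2.00, 3.39, 3.46 and 1.43 CPM in WAT. The surface proteins Slc36a2 and P2rx5 were the 2 that were higher, Slc36a2 at 686, 896, 710.0 and 852 CPM in BAT, against 82.9, 120.2, 100.1 and 99.1 CPM in WAT, and P2rx5 at 101, 127, 122 and 127 CPM in BAT, against 5.93, 3.84, 6.33 and 6.66 CPM in WAT. Of 17 adipokines and secreted factors tested, 7 were higher and 6 lower, near the 33.9% and 38.3% of all genes, and with library totals 5 were higher and 8 lower. Vegfa, which attracts blood vessels, had 793, 835, 777 and 847 CPM in BAT, against 155, 224, 148 and 174 CPM in WAT (log2 fold change 2.21 ± 0.14; edgeR adjusted p = 4.01e-07), and Nrg4, a neuregulin released by brown fat, had 85.4, 119, 78.4 and 102 CPM in BAT, against 15.7, 31.0, 21.1 and 21.2 CPM in WAT.

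**Figure D3:**
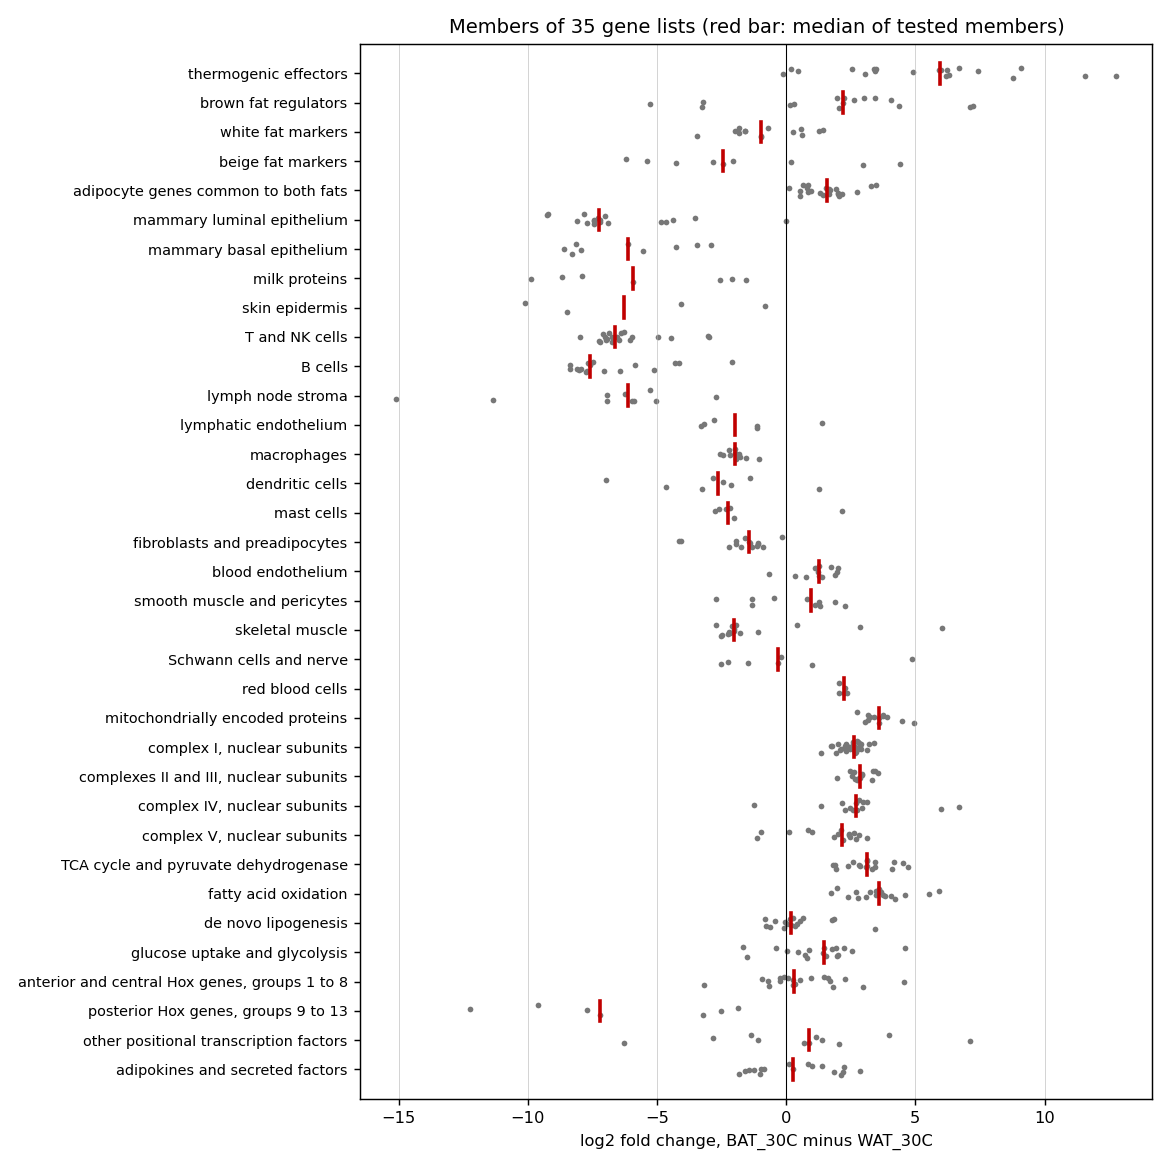
Each grey point is a tested member of 1 of 35 gene lists, placed by its log2 fold change, BAT over WAT, and the red bar is the median of the list. Thermogenic, mitochondrial and oxidative lists lie above 0 with medians of 2.15 to 5.95, and mammary, lymphoid and posterior Hox lists lie below it with medians of -5.91 to -7.58.

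Hox genes record the position of a cell along the body axis, since genes of low number are switched on towards the head and genes of high number towards the tail. Of 16 posterior Hox genes, of groups 9 to 13, 7 passed the filter and were tested. All 7 were lower in BAT, with a median log2 fold change of -7.19. Some of them, such as Hoxc10, passed the filter through their WAT counts alone, so the filter in part set this count. Hoxc10 had 0 counts in every BAT library and 6.72, 9.27, 11.2 and 10.5 CPM in WAT, which against a floor of 3 counts over the BAT libraries is at least 574-fold lower in BAT. Hoxa10 had 1 count in BAT and 1869 counts in WAT, a ratio of WAT to BAT of 1073 (95% counting interval 192 to 42385, exact). Hoxc9 was at 0.0405, 0.0813, 0 and 0.0239 CPM in BAT, against 4.92, 6.29, 5.11 and 6.83 CPM in WAT (log2 fold change -7.19 ± 0.44; edgeR adjusted p = 4.14e-07). Hoxa9 and Hoxd9 were lower but not absent, Hoxa9 at 1.97, 0.447, 1.18 and 0.406 CPM in BAT, against 8.17, 11.1, 8.51 and 9.38 CPM in WAT, and Hoxd9 at 1.30, 0.773, 1.33 and 1.08 CPM in BAT, against 3.52, 4.33, 4.40 and 4.25 CPM in WAT. Hoxb13, below the filter and so not tested, was at 0.142, 0.122, 0.111 and 0.215 CPM in BAT and at 0 in every WAT library.

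Of the 20 anterior and central Hox genes tested, 8 were higher in BAT, 4 were lower and 8 did not pass. Of all genes 33.9% were higher and 38.3% lower, so the number higher was near that share. The genes higher in BAT were of groups 1 to 5, and the genes lower were of groups 6 to 8. Hoxa4 had 11.6, 17.7, 15.6 and 17.9 CPM in BAT, against 0.449, 0.670, 0.716 and 0.842 CPM in WAT (log2 fold change 4.55 ± 0.23; edgeR adjusted p = 1.24e-07), Hoxa5 had 27.9, 22.5, 30.1 and 25.8 CPM in BAT, against 2.88, 3.59, 3.02 and 4.20 CPM in WAT, and Hoxc5 had 28.2, 17.1, 17.5 and 18.1 CPM in BAT, against 3.91, 4.79, 3.45 and 4.70 CPM in WAT. Hoxc8 was lower, at 7.17, 0.346, 1.62 and 0.741 CPM in BAT, against 16.8, 22.8, 18.7 and 31.5 CPM in WAT (log2 fold change -3.17 ± 0.76; edgeR adjusted p = 0.00402). BAT replicate 1 was the highest BAT library for Hoxc8, Hoxc5, Hoxc4 and Hoxa9, while it had 0 counts of Hoxc10 and Hoxa10. Under library totals 6 of the 20 were higher and 8 lower.

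Of 11 other positional factors tested, 7 were higher in BAT and 4 lower, against 33.9% and 38.3% of all genes, and with library totals 4 were higher and 4 lower. Emx2, a homeobox factor, had 0.0405, 0.0610, 0.0222 and 0.0478 CPM in BAT, against 3.19, 3.65, 2.77 and 4.52 CPM in WAT (log2 fold change -6.29 ± 0.32; edgeR adjusted p = 1.17e-07). Tbx5, the T-box factor of the forelimb, was higher in BAT, at 16.3, 23.1, 25.6 and 28.2 CPM, against 1.36, 2.16, 0.882 and 1.55 CPM in WAT (log2 fold change 3.97 ± 0.28; edgeR adjusted p = 1.16e-06). Shox2, a homeobox factor of the limb, had 1.60, 0.386, 0.756 and 0.789 CPM in BAT, against 5.10, 6.31, 5.85 and 7.77 CPM in WAT, and Tbx15, a further T-box factor, had 11.4, 5.10, 4.49 and 7.51 CPM in BAT, against 10.99, 17.2, 21.9 and 23.1 CPM in WAT. Together with Zic1 above, these levels go against the inguinal wording of the BAT label, and the tissue is called BAT here for its Ucp1, Cidea and Zic1.

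**Figure D4:**
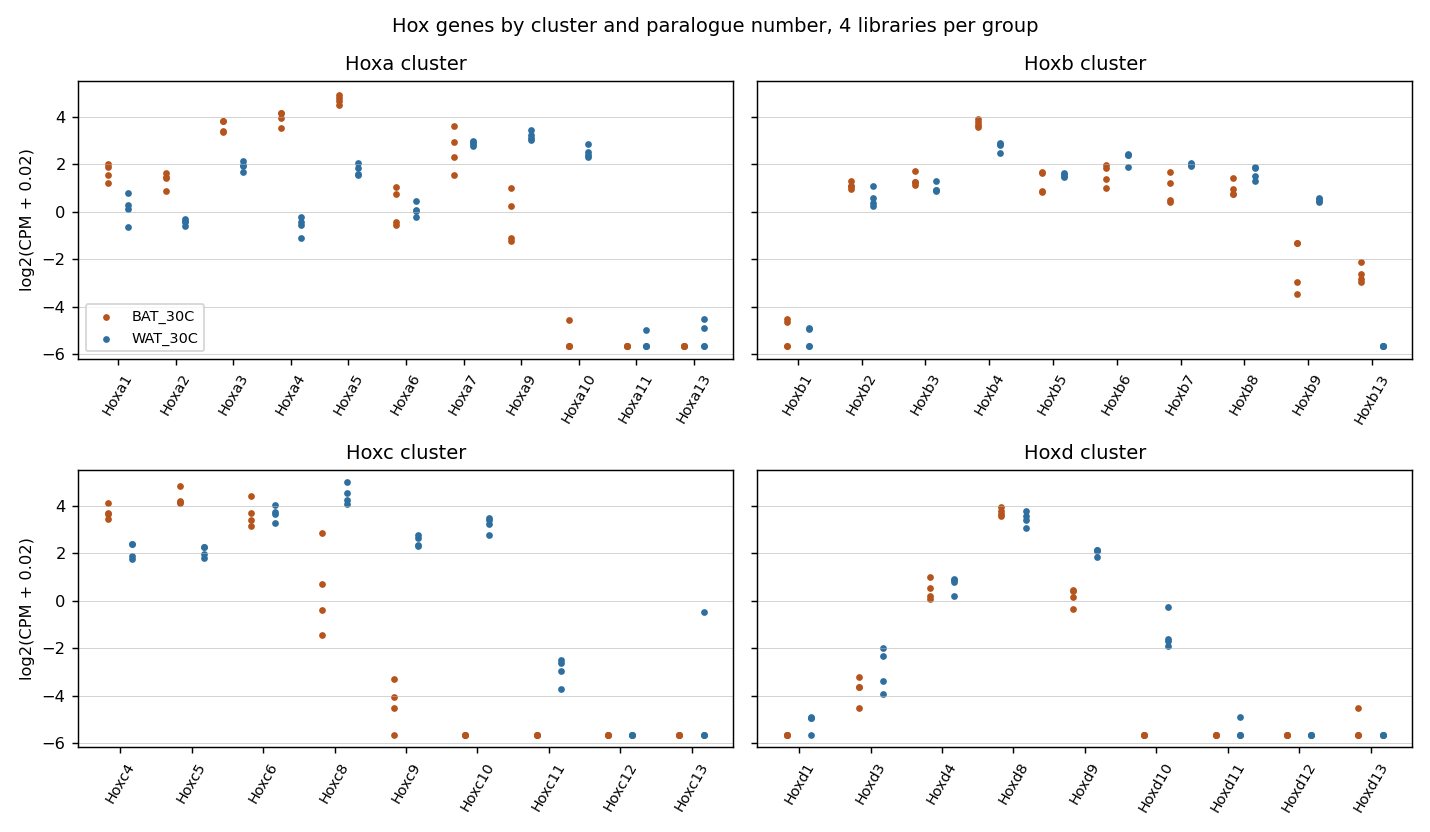
Each panel is a Hox cluster with its genes in order of number, and points are the 4 libraries of BAT (left of each gene) and of WAT (right), as log2(CPM + 0.02), so that 0 counts lie at the bottom. Hoxa4 is at 11.6 to 17.9 CPM in BAT and 0.449 to 0.842 CPM in WAT, while Hoxc10 is at 0 in BAT and 6.72 to 11.2 CPM in WAT.

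Lymph node genes gave some of the largest differences on the white side. All 20 T and NK cell markers (median log2 fold change -6.63), all 17 B cell markers (-7.58) and all 10 genes of lymph node stroma (-6.11) were lower in BAT. Cd3e, part of the T cell receptor complex, had 0.547, 0.610, 1.2 and 1.34 CPM in BAT, against 70.9, 49.5, 71.0 and 47.7 CPM in WAT (log2 fold change -6.03 ± 0.31; edgeR adjusted p = 1.14e-07). Cr2, the complement receptor of B cells and follicular dendritic cells, had 0.506, 0.325, 0.378 and 0.430 CPM in BAT, against 163, 120.0, 153 and 107 CPM in WAT (log2 fold change -8.36 ± 0.21; edgeR adjusted p = 9.05e-09). Ms4a1, the gene of CD20, had 0.770, 0.712, 0.622 and 0.669 CPM in BAT, against 164, 139, 175 and 113 CPM in WAT. WAT replicates 1 and 3 were above replicates 2 and 4 in each of these 3 genes.

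Genes of the stroma and vessels of the node were detected beside those of lymphocytes. Cxcl13, the chemokine that gathers B cells into follicles, had 0.527, 1.36, 0.867 and 1.12 CPM in BAT, against 80.8, 65.7, 78.2 and 71.5 CPM in WAT, and Ccl19, which guides T cells, had 0.223, 0.346, 0.200 and 0.335 CPM in BAT, against 39.6, 26.9, 34.1 and 34.0 CPM in WAT. Chst4, an enzyme that makes the homing ligand on high endothelial venules, had 0 counts in BAT and 6.14, 4.79, 4.51 and 4.96 CPM in WAT, at least 317-fold lower in BAT against the floor of 3 counts. Of the windows of Ccl21a 71.6% and of Ccl19 52.0% occur in other annotated genes, so their own levels are uncertain. Glycam1, a mucin of those venules that is also secreted by the mammary gland into milk, had 3 counts over the 4 BAT libraries and 757, 555, 548 and 668 CPM in WAT. That is a ratio of WAT to BAT of 39214 (95% counting interval 13418 to 190156), though genes with 0 counts in BAT have only a lower bound and cannot be ranked against it. Both tissues that lie in the pad make it, so Glycam1 alone does not tell them apart. The 250 bases before its start are shown because it was abundant in every WAT library and nearly absent from BAT (RefSeq, GRCm38.p6, chr15:103565082-103565331, minus strand).
Glycam1: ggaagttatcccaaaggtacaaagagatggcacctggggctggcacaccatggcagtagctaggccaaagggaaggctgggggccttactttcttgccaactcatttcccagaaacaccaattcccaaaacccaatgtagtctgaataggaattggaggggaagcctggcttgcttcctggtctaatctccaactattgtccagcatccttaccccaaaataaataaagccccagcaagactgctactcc

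Antigen presentation and myeloid genes were lower in BAT by less. All 12 macrophage markers were lower, with a median of -1.97. Csf1r, the receptor of macrophage growth factor, had 35.4, 39.8, 33.5 and 34.6 CPM in BAT, against 102, 166, 114 and 116 CPM in WAT (log2 fold change -1.80 ± 0.15; edgeR adjusted p = 2.83e-06), and Lyz2, a lysozyme, had 122, 171, 121 and 146 CPM in BAT, against 671, 873, 814 and 678 CPM in WAT. Of 8 dendritic cell markers 7 were lower and 1 was higher. Ccl22, a chemokine of mature dendritic cells, had 0.344, 0.488, 0.444 and 0.622 CPM in BAT, against 69.9, 55.6, 58.2 and 55.4 CPM in WAT, near the lymphoid genes in size (log2 fold change -6.98 ± 0.17). H2-Ab1, a class II antigen presentation gene that B cells also make, had 78.4, 85.4, 79.0 and 77.3 CPM in BAT, against 591, 576, 663 and 441 CPM in WAT (log2 fold change -2.83 ± 0.13). Antibody genes were the exception in evenness: Ighm had 23.3, 21.9, 28.5 and 80.2 CPM in BAT, against 692, 601, 758 and 673 CPM in WAT, with BAT replicate 4 about a factor of 3 above the other BAT libraries, and that library was also the highest BAT library for Igkc and Jchain. Other B cell genes such as Ms4a1 did not stand out in it.

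Genes of mammary epithelium formed the other large group on the white side. Of 18 luminal markers 17 were lower in BAT (median log2 fold change -7.25), as were all 9 basal markers (-6.11) and all 7 milk protein genes tested of 12 (-5.91). Krt8, a keratin of the luminal layer, had 0.0405, 5.84, 0 and 0 CPM in BAT, against 497, 181, 249.9 and 424 CPM in WAT (log2 fold change -7.82 ± 1.399; edgeR adjusted p = 0.000651). Pgr, the progesterone receptor, had 0.101, 0.183, 0.0222 and 0.0239 CPM in BAT, against 85.9, 18.5, 35.9 and 72.9 CPM in WAT (log2 fold change -9.24 ± 0.72; edgeR adjusted p = 2.09e-06), and Areg, a growth factor of the duct, had 0, 0.386, 0 and 0 CPM in BAT, against 118, 36.1, 35.8 and 56.9 CPM in WAT. Without BAT replicate 2, which held traces of these genes, the median was -9.70 for the luminal list and -6.74 for milk proteins. WAT replicates 1 and 4 were the high ones for all 3. Kit, which luminal progenitors share with mast cells and other cells, was the luminal marker that did not pass, at 121, 40.02, 45.2 and 42.6 CPM in BAT and 66.8, 49.9, 50.2 and 80.2 CPM in WAT. Without BAT replicate 1 its log2 fold change was -0.52 and passed the test (edgeR adjusted p = 0.0204).

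Milk protein genes were low, apart from a few. Csn2 and Wap, the main milk proteins of the mouse, were at 0.149 CPM or less and 0.0543 CPM or less in WAT. Csn3, the kappa casein, had 0, 0.142, 0 and 0 CPM in BAT, against 48.7, 26.0, 42.0 and 33.2 CPM in WAT (log2 fold change -9.89 ± 0.56; edgeR adjusted p = 2.5e-07). Btn1a1, a protein of the milk fat globule that epithelium makes, had 0, 0.122, 0.0444 and 0 CPM in BAT, against 20.5, 14.5, 9.77 and 28.4 CPM in WAT, and Ltf, the lactoferrin gene, had 0.101, 1.08, 0 and 0.0478 CPM in BAT, against 112, 69.5, 64.2 and 59.1 CPM in WAT. Elf5, the factor of alveolar progenitors, had 0.0203, 0.203, 0.0222 and 0.239 CPM in BAT, against 14.5, 12.4, 10.3 and 20.7 CPM in WAT.

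Single libraries stood apart in the epithelial lists. BAT replicate 2 held traces of them, with a geometric mean of the luminal list of 1.17 CPM, against 0.0951 to 0.151 CPM in the other 3 BAT libraries. Krt5 and Krt14, the basal keratins, are also made by skin, and WAT replicate 2 had a raised level of both: Krt5 had 0, 0.447, 0 and 0 CPM in BAT, against 21.1, 120.2, 28.2 and 18.4 CPM in WAT, and Krt14 had 0, 0.488, 0 and 0 CPM in BAT, against 19.5, 72.0, 21.8 and 15.5 CPM in WAT. The same library stood apart in the 10 skin markers, with a summed level of 435 CPM, whereas the BAT libraries were at 18.7 to 25.2 CPM and the other WAT libraries at 18.0 to 23.4 CPM. Krt10, a keratin of the outer skin, had 3.34, 2.56, 2.56 and 1.99 CPM in BAT and 2.46, 166, 2.91 and 3.54 CPM in WAT (log2 fold change -4.06 ± 1.42; edgeR adjusted p = 0.0268). That call was lost without WAT replicate 2, at -0.19 (edgeR adjusted p = 0.49), and also without any single BAT replicate (edgeR adjusted p = 0.0551 to 0.0659). Hoxc13, a Hox gene of the hair follicle, was detected in that WAT library alone, at 0.695 CPM. Without WAT replicates 2 and 3, a choice made after the data were seen, 5674 genes were higher in BAT and 6600 lower.

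**Figure D5:**
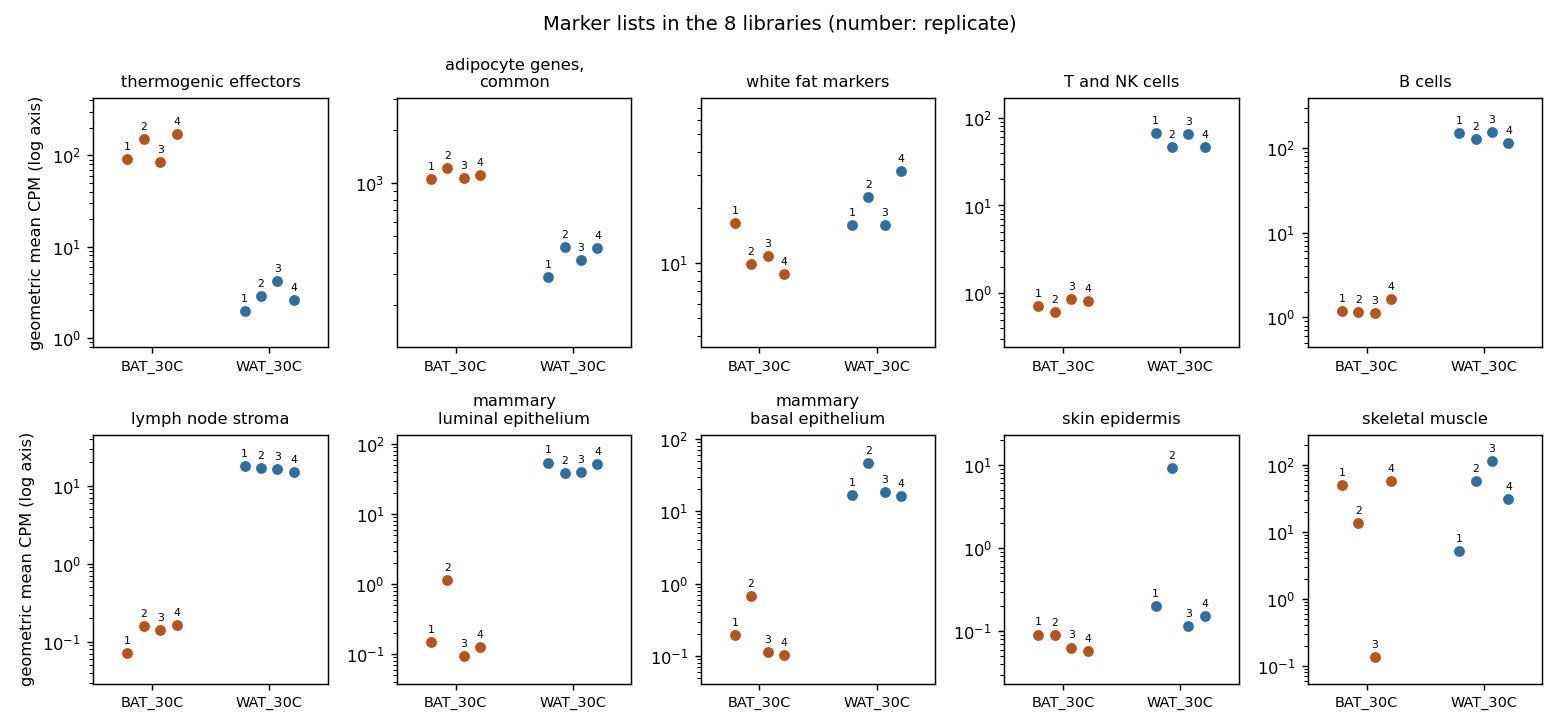
Each panel gives the geometric mean CPM of a marker list in the 4 libraries of BAT (left) and of WAT (right) on a log axis, with replicate numbers. Lymphoid and luminal lists are even over the WAT libraries, at 46.5 to 67.1 CPM for T and NK cells and 38.2 to 54.7 CPM for luminal epithelium, whereas skin stands out in WAT replicate 2 at 9.26 CPM and skeletal muscle runs from 0.136 to 56.6 CPM in BAT and from 5.22 to 113 CPM in WAT.

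A library outside the comparison was low in some of these lists and not in others. WAT replicate 1 of the cold-housed group (WAT_5C) went against its female label, with 3 counts of Xist, the RNA of the inactive X chromosome, and 17183 counts over 4 Y-linked genes, while the 8 libraries at 30 °C had at least 26602 counts of Xist and at most 45 Y-linked counts. Levels in it are given as a percentage of the WAT_30C mean, with 1 library, with another housing temperature and no test. Members with at least 1 CPM in WAT_30C stood at a median of 1.65% for the luminal list and 3.40% for the basal list. The medians were 16.5% for T and NK cells, 30.7% for B cells and 25.9% for lymph node stroma, 81.1% for macrophages, 102% for fibroblasts and 188% for posterior Hox genes. Fat cell lists were high in it, at 356% for common adipocyte genes, 440% for mitochondrially encoded proteins and 661.5% for thermogenic effectors. For thermogenic effectors its geometric mean was 35.5 CPM, against 2.91 CPM for WAT_30C. The remaining WAT_5C libraries were raised too, at 5.745 to 31.1 CPM. Common adipocyte genes had 1172 CPM, while those libraries ranged from 339 to 529 CPM, around 378 CPM for WAT_30C. Mitochondrially encoded proteins had 1402.5 CPM, while those libraries ranged from 272 to 614 CPM, around 312.5 CPM for WAT_30C. Whether more fat cell RNA lowered the other percentages was not tested. Glycam1 was at 11.4 CPM in WAT_5C replicate 1, 2.08% of WAT_30C, and Csn3 at 7.69%.

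The 200 genes with the largest folds on the WAT side, by the naming rule, were sorted by the same percentage. Of these, 52 were members of a list and 148 of none. Under 10% in that library stood 94 of the 200, 103 stood from 10% to under 50%, and 3 at 50% or more. All 21 that belong to a mammary, milk or skin list were under 10%. Of the 27 that belong to a T cell, B cell or lymph node stroma list 26 were from 10% to under 50%. The 3 at 50% or more were Hoxc10, Hoxa10 and Hoxc9, at 294%, 191% and 185%. Of the 148 in no list 72 were under 10% and 76 from 10% to under 50%, and none of them reached 50%.

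Some of the largest folds on the white side lay outside the lists. Aoc1, a diamine oxidase, had 0 counts in BAT and 71.3, 1.65, 11.2 and 47.4 CPM in WAT, at least 2077-fold lower in BAT against the floor but uneven over WAT. Sprr1a, a protein of the cornified envelope, had 0 counts in BAT and 9.17, 5.71, 6.30 and 15.2 CPM in WAT (at least 555-fold lower), and Foxi1, a forkhead factor of ionocytes, had 0 counts in BAT and 7.67, 6.74, 5.10 and 7.82 CPM in WAT (at least 423-fold lower). Calm4, a calcium-binding protein of the skin, had 0 counts in BAT and 1.21, 19.99, 0.946 and 0.856 CPM in WAT, most of it in the replicate with skin keratins. Marco, a scavenger receptor of macrophages such as those of lymph nodes, had 0.0405, 0.0203, 0.0444 and 0 CPM in BAT, against 64.7, 58.5, 53.5 and 24.3 CPM in WAT (log2 fold change -10.76 ± 0.51; edgeR adjusted p = 8.06e-08). Dapl1 had 1 count in BAT and 3983 counts in WAT, a ratio of WAT to BAT of 2286 (95% counting interval 410 to 90301).

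On the brown side the largest folds included genes that are not of fat oxidation. Magel2, an imprinted gene, had 8.41, 4.96, 8.29 and 9.30 CPM in BAT and 0 counts in WAT, at least 825-fold higher in BAT against the floor of 3 counts. Sgk2, a kinase, had 9.14, 15.5, 10.3 and 20.8 CPM in BAT, against 0.0225, 0, 0.0384 and 0 CPM in WAT (log2 fold change 9.64 ± 0.56; edgeR adjusted p = 2.98e-07). Cpn2, a subunit of a plasma carboxypeptidase that trims kinins, had 33.1, 36.1, 21.8 and 43.2 CPM in BAT, against 0.135, 0.0731, 0.0384 and 0.0679 CPM in WAT, and Kng2, a kininogen that gives rise to kinins, had 56.8, 92.5, 77.8 and 83.9 CPM in BAT, against 0.135, 0.280, 0.192 and 0.516 CPM in WAT. Cpne9, a copine, had 6.00, 12.9, 10.4 and 11.6 CPM in BAT, against 0.0786, 0.0487, 0.0895 and 0.0407 CPM in WAT. Of the windows of Kng2 19.4% also occur in other genes, most of them in Kng1. Of the 200 largest folds on the brown side 71 were members of a list, 15 of them thermogenic effectors, 14 of fatty acid oxidation and 11 each of the TCA cycle and the mitochondrial genome.

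Measured by difference in mean CPM in place of fold, Actb, Tmsb4x and Col3a1 were among the 10 largest on the white side. Actb, a cytoskeletal actin, had 810.2, 1085, 780.3 and 1177 CPM in BAT, against 2463, 2127, 2381 and 2059.5 CPM in WAT (log2 fold change -1.23 ± 0.15; edgeR adjusted p = 4.55e-05), Tmsb4x, an actin-binding peptide, had 439.6, 459.5, 529 and 471 CPM in BAT, against 1681, 1429, 1636 and 1707 CPM in WAT, and Col3a1, a fibrillar collagen, had 694, 582, 555 and 535 CPM in BAT, against 1169.8, 1477, 1382 and 1819 CPM in WAT. On the brown side Gpx3, a glutathione peroxidase, had 7881, 7535, 8046 and 6479.8 CPM in BAT, against 2392, 1356, 1499.6 and 2527 CPM in WAT, and Car3, a carbonic anhydrase of fat and muscle, had 9664, 8635, 9881 and 7910.3 CPM in BAT, against 4059, 6491, 5563 and 6362 CPM in WAT (log2 fold change 0.68 ± 0.16; edgeR adjusted p = 0.00305). The direction of Car3 turned under library totals.

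Marker genes of the supporting cells differed between the 2 fats, in both directions. Of 15 fibroblast and preadipocyte genes 14 were lower in BAT (median log2 fold change -1.42). Pdgfra, the receptor of fat cell progenitors, had 43.9, 44.5, 38.6 and 33.5 CPM in BAT, against 75.4, 101, 73.6 and 95.7 CPM in WAT (log2 fold change -1.11 ± 0.13; edgeR adjusted p = 3.97e-05), and Dpp4, a marker of early progenitors in inguinal fat, had 4.36, 8.44, 2.56 and 5.26 CPM in BAT, against 84.6, 98.0, 70.5 and 92.8 CPM in WAT (log2 fold change -4.07 ± 0.31; edgeR adjusted p = 2.02e-06). Blood vessel genes went the other way, with 11 of 12 higher in BAT and 1 lower (median 1.28). With library totals 8 were higher and 2 lower (median 0.50). Kdr, the main receptor of vascular growth factor, had 409, 359, 409 and 393 CPM in BAT, against 83.7, 106, 96.1 and 120.0 CPM in WAT, and Cdh5, the cadherin of endothelial junctions, had 409, 406, 489 and 442 CPM in BAT, against 97.4, 123, 117 and 129.8 CPM in WAT. Vwf, which is richest in larger vessels, was the endothelial gene that was lower, at 33.8, 29.6, 40.8 and 28.7 CPM in BAT, against 39.3, 68.0, 41.0 and 63.4 CPM in WAT (edgeR adjusted p = 0.0115). Mural cells split in the same manner: the 6 pericyte genes were higher, such as Rgs5 at 594, 662, 789.8 and 745 CPM in BAT, against 112, 139.8, 156 and 167 CPM in WAT, and the 4 contractile smooth muscle genes were lower, such as Acta2 at 40.9, 58.5, 56.6 and 46.2 CPM in BAT, against 109, 145, 126 and 129.5 CPM in WAT. With library totals 5 of the mural genes were higher and 4 lower, and the median of that list went from 0.96 to 0.18. All 5 red blood cell genes were higher in BAT (median 2.25).

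Lymphatic, mast and nerve cell genes gave mixed counts, to be set against 33.9% of all genes higher in BAT and 38.3% lower. Of 6 lymphatic genes 4 were lower in BAT and 1 was higher, and Lyve1, a receptor of lymphatic vessels and some macrophages, had 5.14, 6.02, 4.16 and 4.78 CPM in BAT, against 50.5, 30.9, 23.1 and 92.6 CPM in WAT. Of 6 mast cell genes 5 were lower, such as Cpa3 at 4.90, 5.86, 3.56 and 3.32 CPM in BAT and 13.5, 21.3, 12.9 and 23.4 CPM in WAT, but Hdc, the enzyme that makes histamine, was higher, at 5.41, 11.4, 8.69 and 11.1 CPM in BAT, against 1.26, 3.65, 1.47 and 1.71 CPM in WAT (log2 fold change 2.18 ± 0.37; edgeR adjusted p = 0.000498). Of 7 nerve genes tested 2 were higher and 3 lower, near the shares of all genes. S100b, a calcium-binding protein of Schwann cells that fat cells also make, had 80.7, 59.0, 95.6 and 74.9 CPM in BAT, against 1.62, 3.20, 1.99 and 3.73 CPM in WAT (log2 fold change 4.88 ± 0.29; edgeR adjusted p = 3.02e-07).

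Skeletal muscle RNA varied widely between libraries of both tissues. The 16 muscle markers summed to 2031, 458, 65.3 and 2027 CPM in BAT and to 181, 3446, 12580 and 2871 CPM in WAT. Myh4, a fast myosin, had 496, 66.4, 0.0222 and 376 CPM in BAT and 32.5, 814, 4332 and 1038 CPM in WAT (edgeR adjusted p = 0.163). Of the 15 tested only Myh7, the slow myosin, passed, at 11.1, 5.43, 0 and 36.5 CPM in BAT, against 0.460, 0.110, 0.102 and 0.122 CPM in WAT (log2 fold change 6.01 ± 1.43; edgeR adjusted p = 0.00372), and it was at 0 in BAT replicate 3, the library with the least muscle RNA.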

How the data were processed

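The authors deposited 1 table of raw read counts per gene, with 46078 identifiers and no normalization. Per the submitters' processing notes, Trim Galore and TopHat were used. For the counting program, strand setting, genome build and annotation, nothing is given in the sources used here, and reads of a gene and of an antisense partner cannot be told apart. Groups come from the titles. Symbols of GENCODE M21 matched 45229 identifiers and 849 had none.

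The 8 libraries at 30 °C were fitted in R 4.3.3 with edgeR 4.0.16 (limma 3.58.1): filterByExpr (minimum count 10, minimum total 15), TMM, a quasi-likelihood F-test on tissue with no covariate, and Benjamini-Hochberg adjustment over every gene in the fit at a threshold of 0.05. The fit was also run on simulated data in which few genes differed, in both directions alike. That run did not cover the scaling between tissues as unlike as these. The 2-fold test was glmTreat, and a standard error is the absolute log2 fold change divided by the root of F. CPM use TMM library sizes, and ratios of paired genes are divided by annotated length. Alternatives were RLE size factors, library totals with and without mitochondrial genes, no filter, DESeq2 1.42.0, an adjusted p of 0.01, all 16 libraries, BAT replicates 1 and 2 only, a replicate block and leaving out each library. Floors of 3 counts over a group and exact (Clopper-Pearson) 95% counting intervals cover counting error only.

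Named genes were a panel, the 10 largest changes in each direction by fold and by CPM, up to 4 members of each list, the pairs and the Hox genes, with other list members where they help, and a few of these are not reported here. Largest changes were taken among genes past the threshold, at 5 CPM or more in the higher group and without overlap, leaving out predicted genes and receptor segments. The members, lists and tests were chosen with earlier results of these data known. Shared sequence was counted as 50-base windows of a gene's GENCODE M21 transcripts that occur in another gene's, and promoters are from RefSeq (GRCm38.p6).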

Additional observations from a re-analysis of the deposited data

Results flagged for a closer look

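In each tissue the highest and the lowest of the 4 libraries were compared with the other 3 for every named gene and list, and the values below are from a library whose gap to the nearest other was, as a share of the range, above Dixon's 95% critical value for 4 values. Of at most 358 such groups 32 met this, and chance gives about 1 in 20. No cause was tested.

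BAT replicate 1 stood high in Retn at 217 CPM (other BAT libraries 106 to 122 CPM), in Agt, the precursor of angiotensin, at 14.3 CPM (4.40 to 6.02 CPM), in Kit at 121 CPM (40.02 to 45.2 CPM) and in Hoxc5 at 28.2 CPM (17.1 to 18.1 CPM). It was low in mt-Cytb at 57121 CPM (64041 to 64467 CPM). Its geometric mean was high for adipokines at 61.6 CPM and low for lymphatic endothelium at 1.63 CPM.

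BAT replicate 2 carried the epithelial traces. Krt8 was at 5.84 CPM in it and Ltf at 1.08 CPM, against at most 0.0405 and 0.101 CPM in the other BAT libraries. The geometric means were 1.17 CPM for luminal epithelium, 0.681 CPM for basal epithelium and 0.109 CPM for milk proteins. BAT replicate 3 was low in Nrip1 at 57.8 CPM (63.0 to 64.0 CPM), and high in Atpif1 at 7.87 CPM (6.29 to 6.42 CPM) and in the nuclear subunits of complex V, at a geometric mean of 379 CPM. BAT replicate 4 was high in the antibody genes, with Ighm at 80.2 CPM (21.9 to 28.5 CPM), Igkc at 35.8 CPM (4.17 to 7.44 CPM) and Jchain at 13.4 CPM (2.29 to 3.09 CPM), and the B cell list stood at 1.62 CPM.

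WAT replicate 1 was low in Ppargc1a at 3.91 CPM (other WAT libraries 6.43 to 6.52 CPM) and in Hoxd9 at 3.52 CPM (4.25 to 4.40 CPM), and high in Myh7 at 0.460 CPM (0.102 to 0.122 CPM). WAT replicate 2 was high in the skin keratins, with Krt5 at 120.2 CPM (18.4 to 28.2 CPM), Krt14 at 72.0 CPM (15.5 to 21.8 CPM) and Krt10 at 166 CPM (2.46 to 3.54 CPM). Calm4 was at 19.99 CPM there (0.856 to 1.21 CPM) and Pank1 at 6.74 CPM (5.11 to 5.32 CPM), and the geometric means were 45.5 CPM for basal epithelium and 9.26 CPM for skin. WAT replicate 3 was high in Cidea at 6.66 CPM (1.88 to 1.91 CPM) and in Fasn at 6807 CPM (2981 to 3610.1 CPM). In WAT replicate 4 the milk protein list stood highest, at a geometric mean of 1.16 CPM.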

How the results depend on the processing

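With library totals 2514 genes were higher in BAT and 12513 lower, and 966 and 6488 lay beyond 2-fold. Of the 15027 genes past the threshold there, 11125 also passed with TMM, 9615 of them in the same direction. With totals that leave out mitochondrial genes, 3959 genes were higher and 1439 of these lay beyond 2-fold. The test against a 2-fold threshold left 5980 genes, 2167 higher and 3813 lower. Under RLE size factors, DESeq2, no filter, an adjusted p of 0.01, all 16 libraries in 1 fit, or BAT replicates 1 and 2 only, the number past the threshold was 11529 to 14344. With WAT replicates 2 and 3 left out together, an alternative chosen after seeing the data, it was 12274. Leaving out 1 library at a time gave 12933 to 13435 genes past the threshold, 6063 to 6251 higher, 6870 to 7184 lower, 2077 to 2240 beyond 2-fold higher and 3751 to 3982 beyond 2-fold lower.

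Whether equal replicate numbers stand for the same mouse is not known. Deviations from the tissue means correlated at -0.213, 0.0501, -0.273 and -0.047 for libraries of equal number. For libraries of unequal number the correlations ran from -0.237 to 0.352. Brown and white fat of a mouse need not deviate together, so these values cannot decide the question. With the replicate number as a block 12864 genes passed, 6029 higher and 6835 lower, of which 12716 were shared with the fit without it, all in the same direction. Kit turned to -0.13 and Krt10 no longer passed (adjusted p = 0.334).

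Of 144 named genes, 116 kept their direction and their side of the threshold under all 19 alternatives, where DESeq2 gave an adjusted p for 142 of them. The changes of direction below are log2 values, and the cause was not tested. With library totals the median was -0.57 for de novo lipogenesis, -0.45 for anterior and central Hox genes and -0.49 for adipokines. Single genes there stood at -0.35 for Elovl3, -0.58 for Adrb3, -0.61 for Zfp516, -0.48 for Irf4, -0.49 for Lep, -0.15 for Rb1, -0.68 for Cfd, -0.74 for Kit, -0.31 for Ldha and -0.09 for Car3. Of these, Adrb3, Zfp516 and Cfd passed there as lower in BAT (edgeR adjusted p = 0.0252, 0.00079 and 0.0126), and the others did not pass. With totals that leave out mitochondrial genes these were -0.20 for de novo lipogenesis, -0.079 for anterior and central Hox genes, -0.12 for adipokines, -0.20 for Adrb3, -0.24 for Zfp516, -0.10 for Irf4, -0.12 for Lep, -0.30 for Cfd and -0.38 for Kit. Kit was at -0.003 under both DESeq2 and RLE, and at -0.024 with no filter. Leaving out 1 library gave -0.52 to 0.18 for Kit, -0.71 to 0.56 for Ckmt2, -0.045 to 0.62 for Lep and for the adipokine median, -0.11 to 0.24 for Cfd, -0.20 to 1.41 for Elovl3 and -0.007 to 0.33 for Adrb3. Without WAT replicates 2 and 3 Ckmt2 was at 1.42, Kit at -0.24 and Cox6a2 at 0.066.

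Genes with 0 to few counts in a tissue have no measurable fold, and their fitted values are not sizes. With 4 libraries a tissue, differences under about the spread within a tissue were not detectable, and a missed threshold does not show equal levels.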
